A study of Mus musculus with 43 samples.

Results

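The tricarboxylic acid (TCA) cycle and the entry of pyruvate into it were represented in a metabolic CRISPR screen by 165 sgRNAs against 33 genes, 5 sgRNAs per gene, of 10640 sgRNAs and 2078 genes in all. Genes were chosen by symbol, as the enzymes of the cycle, the pyruvate dehydrogenase complex with its kinases and phosphatases, the mitochondrial pyruvate carrier, and the enzymes that feed or drain the cycle (pyruvate carboxylase, malic enzymes, ATP citrate lyase and cytosolic isoforms). The symbols Pdk1, Pdk4 and Mpc2, which the same choice would take, were not analysed here.

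The screen used ovalbumin-specific CD8+ T cells of OT-I mice. These carried a Cas9 knock-in and received a lentiviral sgRNA library with CD90.1 as its reporter. Cells were injected into mice with orthotopic KPC_OVA tumours, a pancreatic cancer line that expresses ovalbumin, and per the study's methods the recipients were Rosa26-Cas9 mice. Cells kept on the day of transfer (day 0) were the reference, called T0, with 3 libraries. On day 7, CD90.1+ cells were sorted under anti-PD-1 or IgG from the primary tumour, spleen, lungs, liver, peritoneal metastases, draining lymph nodes and non-draining lymph nodes, which gave 14 groups that all share T0. Groups held 3 libraries each, except liver anti-PD-1 with 1 and liver IgG and peritoneal metastases IgG with 2. Of 43 samples, 41 carry values, and those without are replicate 2 of liver anti-PD-1 and replicate 1 of peritoneal metastases IgG. The labels list replicates 2 and 3 for both liver groups. The methods say that 2 samples were excluded after quality control. Strain and age are not in the labels. Libraries hold sgRNAs and no transcripts, so the identity of the sorted cells could not be checked against marker genes, and which mice stand behind a library is not given. The p-values therefore measure the spread between libraries, and libraries of different organs may share animals. Peritoneal metastases anti-PD-1 replicate 2 carries spleen as its tissue label and was used by its title.

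In the cycle, acetyl-CoA and oxaloacetate form citrate, which is oxidized through isocitrate, 2-oxoglutarate, succinate, fumarate and malate back to oxaloacetate, with NADH and FADH2 passed to the respiratory chain. Pyruvate enters as acetyl-CoA through the pyruvate dehydrogenase complex, or as oxaloacetate through pyruvate carboxylase. Activated CD8+ T cells are known for a strong use of glycolysis, and also draw on glutamine, which enters the cycle as 2-oxoglutarate. A cell that carries an sgRNA against a gene it needs to survive or divide leaves fewer copies of that sgRNA, which is read as depletion.

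The values are a signal per sgRNA, scaled by the authors to nontargeting sgRNAs and batch corrected. A level here is log2(signal + 1), averaged over the 5 sgRNAs of a gene, minus the same average over the library's 250 nontargeting sgRNAs. A change is a group's mean level minus that of T0, and a gene was called at an adjusted p of at most 0.05 (limma, Benjamini-Hochberg over 2078 genes). The scale understates changes near a signal of 0. Many sgRNAs sat at a bottom value, the lowest that the sgRNA had in any library of the same replicate number. This held for 0.0188% to 0.094% of sgRNAs in T0, 2.89% to 24.2% outside lymph nodes and lungs, 11.2% to 42.7% in lungs and 50.0% to 92.8% in lymph nodes, so lymph nodes were fitted apart.

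Sequences of the screen's own sgRNAs are not among the data used here. For 3 of the genes the study's second, single-cell library (CROP-seq) names its guides, and these are shown to place the targeted exons of citrate synthase (Cs), of a regulatory subunit of isocitrate dehydrogenase 3 (Idh3g) and of mitochondrial malate dehydrogenase (Mdh2). Per the paper, the second library targets genes found enriched in this screen, in some organ and treatment, by the algorithms MAGeCK and STARS alike. None of the values below belongs to these guides. Each runs 5′ to 3′ with the guide in lower case and the PAM next to it in the GRCm38 genome in capitals.
Cs guide 1: tccttccttcagatgtacggTGG
Cs guide 2: gaaccgagctaagtactgggAGG
Cs guide 3: actgagcaatctgatacctaAGG
Idh3g guide 1: ggccatccgccggaaccgtgTGG
Idh3g guide 2: gagtgggcgtaagaaagtgaCGG
Idh3g guide 3: attgtacgggaaaacacagaAGG
Mdh2 guide 1: tcacgcacctgagagatcagGGG
Mdh2 guide 2: gtgtgtgagcgatatcgtagAGG
Mdh2 guide 3: gttggcaatgatgcaaaccaTGG
All 9 guides matched their gene at 1 place. Those for Cs lay on the plus strand of chromosome 10, at chr10:128351187-128351206, chr10:128353190-128353209 and chr10:128350447-128350466, and their cut positions, 3 bases before the PAM, fell in coding exons 4, 6 and 3. Those for Idh3g lay on the minus strand of chromosome X, at chrX:73781689-73781708, chrX:73780599-73780618 and chrX:73780926-73780945, with cuts in coding exons 5, 8 and 7. Those for Mdh2 lay on the minus strand of chromosome 5, at chr5:135787607-135787626, chr5:135783403-135783422 and chr5:135786016-135786035, with cuts in coding exons 6, 2 and 4.

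Across the 10 groups outside the lymph nodes, 6 of the 33 genes were depleted against T0 and none was enriched. They included Ogdh, Dlst and Dld, the E1, E2 and E3 subunits of the 2-oxoglutarate dehydrogenase complex, Idh3a, the catalytic subunit of the NAD-dependent isocitrate dehydrogenase, and Fh1, fumarase. In the mean of the 10 groups, depletion was called for 16.1% of all 2078 genes and enrichment for 0.192%. The share among the 33 genes was thus near that of the library, and the median change of the 33 genes, -0.17, lay close to the median of all genes, -0.14. No further member reached an unadjusted p under 0.05. The 6 calls were also made without the lung libraries and without peritoneal metastases anti-PD-1 replicate 2. Without any centring on nontargeting sgRNAs 13 members were depleted, beside 671 of all 2078 genes, while the median of all genes then lay at -1.14.

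Ogdh, which decarboxylates 2-oxoglutarate, had the lowest change of the 33 genes. Its levels were -0.76, -0.38 and 0.65 in the 3 T0 libraries and ran from -6.76 over a median of -5.13 to -3.86 in the 26 libraries outside the lymph nodes. No library overlapped with T0. The change was -5.06 (SE 0.439, limma adjusted p = 2.29e-11). By group, the mean level was -5.24 ± 0.82 (SD, n = 3) in primary tumour IgG and -5.84 ± 0.70 (SD, n = 3) in primary tumour anti-PD-1. In spleen it was -5.36 ± 0.73 (SD, n = 3) under IgG and -5.27 ± 0.42 (SD, n = 3) under anti-PD-1. The lungs, with more sgRNAs at the bottom, stood at -5.48 ± 0.53 (SD, n = 3) and -5.06 ± 0.07 (SD, n = 3). Liver IgG libraries were at -4.61 and -6.76, the single liver anti-PD-1 library at -3.86, peritoneal metastases IgG at -4.91 and -5.57, and peritoneal metastases anti-PD-1 at -5.20 ± 0.13 (SD, n = 3).

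The single sgRNAs of Ogdh show what these levels rest on. sgRNA s_02425 had a signal of 127, 183 and 270 in the T0 libraries, of 1.63, 0.157 and 0.624 in primary tumour IgG, and of 0.113, 0.157 and 0.0 in primary tumour anti-PD-1. It lay at its bottom value in 23 of 26 libraries. For s_02422, s_02423 and s_02424 the median signal went from 454, 132 and 172 in T0 to 0.468, 0.0962 and 0.146 outside the lymph nodes, with 17, 24 and 24 libraries at the bottom. The fifth, s_02421, kept a median signal of 70.2 against 312 in T0, a change of -1.77, and lay below all T0 libraries in 22 of 26. All 5 were below a change of -1, a line that 10% of the 250 nontargeting sgRNAs also crossed.

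Dlst, the subunit that carries the lipoyl group and passes the succinyl unit to coenzyme A, followed closely. Its T0 levels were -0.43, -0.34 and 0.52, and the other 26 libraries ran from -7.34 over -5.10 to -3.20, again with no overlap. The change was -5.05 (SE 0.532, limma adjusted p = 1.49e-09). All 5 sgRNAs fell below -1, with changes from -6.46 to -3.41, and s_06944 was at its bottom value in 25 of 26 libraries. Dld, the dihydrolipoamide dehydrogenase that this complex shares with pyruvate dehydrogenase, the branched-chain complex and the glycine cleavage system, had T0 levels of -0.29, -0.09 and 1.06 and levels from -5.99 over -4.54 to -2.29 outside the lymph nodes. Its change was -4.42 (SE 0.550, limma adjusted p = 4.23e-08). Of its sgRNAs 4 changed by -6.21 to -4.91, whereas s_01104 changed by -0.48 and was below T0 in 9 of 26 libraries.

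Idh3a, whose subunit oxidizes isocitrate to 2-oxoglutarate, had T0 levels of 0.10, -0.09 and 0.57 and ran from -4.98 over -2.21 to -0.15, below T0 in 26 of 26 libraries. It changed by -2.50 (SE 0.588, limma adjusted p = 0.00115), with sgRNAs from -3.39 to -1.92. With the median of the 5 sgRNAs in place of their mean, and the nontargeting median as the centre, it missed the threshold (limma adjusted p = 0.0553). Both changes were made together wherever the median of the sgRNAs is named below.

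Fh1, which hydrates fumarate to malate, had T0 levels of 0.03, 0.14 and 0.67. The 26 libraries ran from -4.92 over -2.82 to -0.33, all below T0, and the change was -3.06 (SE 0.559, limma adjusted p = 3.93e-05). Its sgRNAs differed widely. s_01262 and s_01261 changed by -5.22 and -5.06, s_01264 by -2.43, s_01263 by -1.88 and s_01265 by -0.72. The complete separation from T0 that held for Ogdh, Dlst, Dld, Idh3a and Fh1 was seen in 14% of all genes.

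In T0 itself, replicate 3 had the highest level of the 3 libraries for all 6 depleted members, by 0.24 to 1.25 over the mean of replicates 1 and 2 (median 0.75). The same order held for 89.8% of the 334 depleted genes and for 33.5% of the other genes. Without T0 replicate 3 the same 6 members were called. Whether part of the loss had begun in the cells of T0 replicates 1 and 2 before transfer was not tested.

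Group by group, the calls fell mostly on these 6 genes. In primary tumour IgG 6 members were depleted (background 14.3% of all genes) and in primary tumour anti-PD-1 also 6 (14.4%), in both the same 6 as in the mean. Spleen had 5 under IgG (13.6%) and 5 under anti-PD-1 (14%). In the lungs 6 were depleted under IgG (16.2%) and 7 under anti-PD-1 (17.2%). Liver IgG had 5 (13.1%), and the single liver anti-PD-1 library had Ogdh, Dlst and Fh1 as its 3 (9.58%). Peritoneal metastases had 4 under IgG (13.7%) and 5 under anti-PD-1 (15.3%). Idh3a was not called in spleen anti-PD-1, lung IgG, liver anti-PD-1 and both groups of peritoneal metastases, Fh1 was not called in peritoneal metastases IgG, and Dld was not called in liver anti-PD-1. Ogdh and Dlst were thus called in all 10 groups, as were 8.37% of all genes. Members missing in a group were not shown to differ there. In liver IgG, Fh1 and Idh3a were no longer called, leaving 3 members, when any T0 library or liver IgG replicate 2 or 3 was left out.

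Both calls beyond the 6 came from the lungs. Pcx, pyruvate carboxylase, was at -0.27, 0.14 and 0.19 in T0 and at -1.53, -2.46 and -1.58 in lung IgG, a change of -1.87 (SE 0.596, limma adjusted p = 0.0228), against -0.40 in lung anti-PD-1. The call was lost without lung IgG replicate 2 (adjusted p = 0.102), T0 replicate 2 (0.0779) or T0 replicate 3 (0.0861), and with 1 fit of all libraries (0.166). Idh3b, a regulatory subunit of isocitrate dehydrogenase 3, was at -0.09, 0.07 and 0.13 in T0 and at -3.18, -1.63 and -0.31 in lung anti-PD-1, a change of -1.75 (SE 0.613, limma adjusted p = 0.0428). Its 3 libraries spread over more than the change itself. It was lost without any T0 library, lung anti-PD-1 replicate 1 or 2, or primary tumour IgG replicate 1 (adjusted p 0.0512 to 0.296). It was also lost with log2(value + 10) (0.108), 1 fit of all libraries (0.324), only the groups compared (0.157), the median of the sgRNAs (0.139) and the lowest 10% of sgRNAs left out (0.159). Across all 10 groups, 2.60% of genes were enriched in at least 1, and no member was. Cs, Idh3g and Mdh2, which the paper counts as enriched, were thus not called so here. The paper used other tests, and its organs included the lymph nodes.

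The subunits of pyruvate dehydrogenase itself were not called. Pdha1 and Pdhb form E1, which decarboxylates pyruvate, Dlat is the lipoylated E2 and Pdhx binds Dld to the core. Their changes were 0.15 (95% interval -0.80 to 1.09), 0.07 (-0.78 to 0.92), 0.06 (-0.84 to 0.97) and 0.08 (-1.15 to 1.30), and limma gave an adjusted p of 1.0 for each. These intervals lie above that of Ogdh, -5.96 to -4.17. Within each library, the mean level of Ogdh and Dlst minus the mean of the 4 pyruvate dehydrogenase subunits ran from -0.68 to 0.38 in T0 and from -6.97 to -4.25 in the 26 libraries outside the lymph nodes. This difference, and those between paired genes given below, were chosen after values were seen and carry no test. Pdha2, the testis form of E1 alpha, changed by -0.03.

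The regulators and the carrier gave values of the same size. The kinases Pdk2 and Pdk3, which inactivate pyruvate dehydrogenase, changed by -0.13 and 0.31, and the phosphatases Pdp1 and Pdp2, which reactivate it, by 0.11 and 0.07. Mpc1, a subunit of the mitochondrial pyruvate carrier, changed by 0.27 (95% interval -0.59 to 1.12). Of the 12 genes of pyruvate entry, counting Pcx, Dld alone was called in the mean of the 10 groups.

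Within the cycle, genes of the same step or reaction type gave unlike values. Idh3b and Idh3g changed by -0.32 (95% interval -1.26 to 0.62) and 0.28 (-0.57 to 1.13). Idh3a minus the mean of both ran from -0.09 to 0.39 in T0 and from -4.82 over -2.37 to -0.03 outside the lymph nodes. Of the Idh3g sgRNAs, s_01992 and s_01994 changed by 1.27 and 0.81, s_01993 by 0.45, s_01991 by -0.16 and s_01995 by -0.95, so the sgRNAs against this gene did not move one way. Idh2 and Idh1, the NADP-dependent enzymes of mitochondria and cytosol, changed by -0.39 and -0.55. Ogdhl, a paralog of Ogdh, changed by 0.02 (95% interval -0.98 to 1.01), and Aco1, the cytosolic aconitase, by -0.20 (-1.10 to 0.69).

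Citrate synthase, the enzyme that opens the cycle, had the largest increase of the 33 genes, and it was not called. Cs levels were 0.75, 0.45 and 0.25 in T0 and ran from -0.51 over 0.80 to 2.61 outside the lymph nodes, with 13 of 26 libraries above all T0 libraries and 10 below. The change was 0.37 (95% interval -0.54 to 1.29, limma adjusted p = 1.0), and it was -0.04 with the nontargeting median as the centre. Its sgRNAs changed by -0.11, 0.41, 0.45, 0.54 and 0.57. Mdh2, which regenerates oxaloacetate, changed by 0.21 (95% interval -0.88 to 1.30) and Mdh1, its cytosolic counterpart, by -0.17. Fh1 minus Mdh2 ran from -0.28 to 0.56 in T0 and from -6.03 to -1.14 in the other 26 libraries.

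Succinyl-CoA ligase is built from Suclg1 and either Sucla2 or Suclg2, which set its ATP or GTP specificity. Suclg1 changed by -0.50 (95% interval -1.56 to 0.56), Sucla2 by -0.26 and Suclg2 by 0.20, and limma called none of them. Of the genes that feed or drain the cycle, Acly, which cuts exported citrate into acetyl-CoA and oxaloacetate, had the lowest value at -1.04 (95% interval -2.25 to 0.17, limma adjusted p = 0.438), with 5 of 5 sgRNAs below 0 and 20 of 26 libraries below all T0 libraries. Pcx changed by -0.49 in the mean of the 10 groups. The malic enzymes Me1, Me2 and Me3 changed by -0.22, -0.51 and 0.10. The value of Me2 came mainly from s_07453, which changed by -2.51 and was below all T0 libraries in 26 of 26, while its other 4 sgRNAs changed by -0.64 to 0.46. Over the 27 genes that were not called, changes ran from -1.04 to 0.37 with a median of 0.02.

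Companion genes of the same pathway, listed by function, are given for the neighbouring steps. Succinate dehydrogenase, the step between succinyl-CoA ligase and fumarase, had 4 of 4 subunits depleted, with Sdha at -4.76 (SE 0.584, limma adjusted p = 3.16e-08), Sdhc at -3.85, Sdhb at -3.78 and Sdhd at -3.20. The enzymes that make or attach lipoate, the cofactor of Dlst and Dlat, were also depleted in 3 of 3 cases, Lipt1 by -4.09, Lias by -3.94 and Lipt2 by -2.69. Ldha, which turns pyruvate to lactate, changed by -2.67 (SE 0.517, limma adjusted p = 9.32e-05). Ldhb and Glud1, glutamate dehydrogenase, changed by 0.01 and -0.07. None of 7 citrate, malate and aspartate shuttle genes (-0.29 to 0.58), of 3 branched-chain complex genes (-0.46 to 0.01) or of 2 acetate-activating genes (-0.23 and -0.13) was called. In all, 9 of 23 companions were depleted and none enriched, beside 16.1% and 0.192% of all 2078 genes. The companions were listed with earlier results of these data known, so their count carries no test.

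Between organs outside the lymph nodes, the moderated F-test called 9 of 2078 genes (0.433%) and no member. At an unadjusted p under 0.05 limma gave 162 genes and 1 member, Idh3b, whose adjusted p was 0.476. If the batch correction worked on organs, as the methods say, it would itself remove differences between organs. The few calls would then not show that the organs were alike. Between treatments, 28 genes (1.35%) differed, among them 1 member, Mdh2. Its level was lower under anti-PD-1 in 5 of 5 organs, and the mean difference was -1.43 (SE 0.364, limma adjusted p = 0.0354). In primary tumour, Mdh2 stood at -0.17, 0.79 and 0.93 under IgG and at -0.04, -0.79 and -0.25 under anti-PD-1. In lungs, which had the largest difference, it stood at 2.21, 2.79 and 1.11 against -0.82, -1.66 and 1.23. These treatment groups overlapped in both organs. Spleen libraries were at 0.29, 1.41 and 1.40 against 1.14, -2.18 and 0.40, liver at 0.68 and 1.61 against 0.20, and peritoneal metastases at 1.05 and 0.81 against -1.44, -1.13 and 0.48. Spleen thus overlapped as well. Liver, with a single anti-PD-1 library, and peritoneal metastases did not, which so few libraries can give without any difference. The share of all genes without overlap was not counted.

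The Mdh2 difference rested on part of its sgRNAs. Those with the largest differences were s_02215 at -3.47 and s_02212 at -2.51, followed by s_02213 at -1.07, whereas s_02214 and s_02211 differed by -0.17 and 0.08. The call was lost in 16 of 29 fits that each left out 1 library (adjusted p up to 0.116) and without the lungs (difference -1.17, limma adjusted p = 0.0956). It was also lost with the nontargeting median (adjusted p = 0.103), values as deposited (0.106), 1 fit of all libraries (0.44, and 1.0 with the nontargeting median), only the groups compared (0.0665) and the median of the sgRNAs (0.314), with differences of -1.46 to -1.40. Pcx was next, higher under anti-PD-1 by 1.08 (SE 0.304, limma adjusted p = 0.0627) and in 5 of 5 organs, and Aco1 followed with a difference of -0.99 (SE 0.299, limma adjusted p = 0.096), lower in 5 of 5. Neither passed the threshold. The same sign in 5 of 5 organs was also seen for Acly (lower) and for Idh3g, Me3, Ogdhl, Pdha2 and Pdhb (higher), none of them called. Its share among all genes was not counted. For Ogdh, Dlst, Dld, Fh1 and Idh3a the differences were 0.36, 0.84, 0.27, -0.52 and -0.18, and none was called. Several sgRNAs of Ogdh, Dlst and Dld lay at their bottom value in most libraries outside the lymph nodes, where a difference could hardly show.

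In the lymph nodes no gene was called in any of the 4 groups or in their mean (0.0% of 2078), by limma with Benjamini-Hochberg adjustment. At an unadjusted p under 0.05, the mean of the 4 groups had 191 genes and 3 members, Ogdh, Fh1 and Dlst. Of the genes depleted elsewhere, 5 changed there by -2.08 (Ogdh), -1.81 (Dlst), -1.75 (Fh1), -1.26 (Dld) and -1.24 (Idh3a), with limma adjusted p from 0.31 to 0.867. Ogdh was below all T0 libraries in 11 of 12 lymph node libraries, with levels from -3.83 over -2.22 to -0.29. Idh2 and Pdp1, not depleted elsewhere, were so in 10 and 9 of 12, and the share among all genes was not counted. The nontargeting sgRNAs of those libraries spread with an SD of 2.04 to 4.35 on the log2 scale, against 1.08 to 1.11 in T0, and 44.8% to 91.5% of the sgRNAs against the 33 genes sat at their bottom value. For Idh3g and Cs, upward values there came from few sgRNAs. Idh3g, at 1.38 (SE 1.03), had s_01992 at 4.32 and s_01994 at 2.03 and the other 3 between -0.03 and 0.31, and Cs had s_00792 at 3.34 and the other 4 between -0.51 and 1.38. A difference between lymph nodes and other organs was not tested, because both were fitted apart.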

How the data were processed

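Integrated sgRNAs were sequenced from genomic DNA of sorted CD90.1+ T cells. Per the methods, the authors made counts with MAGeCK-VISPR, used the 250 nontargeting sgRNAs for normalization and ComBat against batch effects of organs, and deposited 1 table with a signal per sgRNA for 41 libraries. Settings of ComBat are not given in the sources used here. The signal holds few whole numbers, so read depth is unknown, no count test was run, and the number of libraries and sgRNAs limits the precision. The summed signal was 2882462 to 4228882 in T0 and 1788300 to 4130054 in the other libraries. Within a replicate number, sgRNAs share a bottom value across libraries, so whether the batches corrected were organs, as the methods say, or replicate numbers was not settled. The methods also say that sequencing was done in several separate runs that were then pooled. Whether a replicate number marks such a run is not in the labels.

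From the signal, log2(value + 1) was averaged over 5 sgRNAs and centred on the mean of the nontargeting sgRNAs. limma 3.58.1 in R 4.3.3 fitted T0 with the 10 groups outside the lymph nodes (29 libraries) and T0 with the 4 lymph node groups (15 libraries) separately, since the lymph node libraries spread more (prior variance 1.64 against 0.59). Contrasts were each group against T0, the mean of each set against T0, an F-test over 5 organs, and anti-PD-1 minus IgG over organs, at a Benjamini-Hochberg adjusted p of 0.05 over 2078 genes. Intervals are 95% intervals of the moderated fit. Tables were made in Python 3.11.15 with pandas 2.3.3, numpy 2.4.6 and scipy 1.17.1. The fits were tried on simulated gene levels, with normal noise drawn independently per library. These held no bottom values and no batch correction, so they could not show how the fits act on such values. Genes named in full are the members called in the mean outside the lymph nodes, the one with the largest increase, those called between organs or treatments, and the other subunits of their complexes. All 33 symbols matched RefSeq, and the guides shown were located on GRCm38 with GENCODE exon numbers. The members, lists and tests were chosen with earlier results of these data known. Alternatives were log2(value + 10), the nontargeting median, values without centring, 1 fit of all libraries, that fit with the nontargeting median, only the groups compared, the median of the sgRNAs, the lowest 10% of sgRNAs left out, the replicate number as a block and each library left out. The median of the sgRNAs was run with the nontargeting median as its centre and not alone. Leaving out the lung libraries was added after seeing the data. The authors' guides for the single-cell screen carry no values here, and Bckdk was not analysed here. Among the depleted genes, 1 member and 1 companion enter the counts but are not reported here by name.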

Additional observations from a re-analysis of the deposited data

Results flagged for a closer look

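One result was marked because the change against T0 differed between the treatments by a test of the difference itself. Mdh2 was lower under anti-PD-1 than under IgG in 5 of 5 organs outside the lymph nodes, as were Acly and Aco1, which were not called. For Mdh2 the mean difference, anti-PD-1 minus IgG, was -1.43 on the log2 scale (limma adjusted p = 0.0354). The call was not made when any of 16 libraries was left out, namely T0 replicates 1 to 3, primary tumour IgG replicates 2 and 3, primary tumour anti-PD-1 replicates 2 and 3, spleen IgG replicates 2 and 3, spleen anti-PD-1 replicate 2, lung anti-PD-1 replicate 1, liver IgG replicate 3, peritoneal metastases IgG replicates 2 and 3, and peritoneal metastases anti-PD-1 replicates 1 and 2. The difference was -1.45 to -1.23 in those fits. It was also not called in 6 of the fixed alternatives (-1.46 to -1.40, adjusted p 0.0665 to 1.0) and without the lung libraries (-1.17, adjusted p = 0.0956). Liver anti-PD-1 had 1 library, whose spread was taken to be that of the other groups. Among the 23 companions, Sdhd alone was called between treatments, lower under anti-PD-1 (-2.37, SE 0.351, limma adjusted p = 0.000106). The mean change of Sdhd against T0 was -3.20. The other subunits of its complex, Sdha, Sdhb and Sdhc, differed by 0.12, 0.91 and -0.07 between treatments and were not called.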

How the results depend on the processing

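The depletion of Ogdh, Dlst, Dld and Fh1 in the mean outside the lymph nodes was called under all 38 alternatives, and that of Idh3a under 37, failing with the median of the sgRNAs (adjusted p = 0.0553). The count of 6 depleted members became 13 with values as deposited (671 of all genes). No setting gave an enriched member in the mean outside the lymph nodes. The median change of all genes moved by -0.41 with the nontargeting median, by -0.998 without centring and by -0.17 with the median of the sgRNAs, so that small values reversed. With values as deposited, Cs changed by -0.63, Mdh2 by -0.79, Pdha1 by -0.85, Pdhb and Dlat by -0.93, Pdhx by -0.92 and Idh3g by -0.72. With the nontargeting median, in either fit, they changed by -0.04, -0.20, -0.26, -0.34, -0.35, -0.34 and -0.13 in that order of genes. With the median of the sgRNAs, Mdh2 came to -0.01, Pdhb to -0.16, Dlat to -0.41 and Pdhx to -0.15. With log2(value + 10), Pdhb came to -0.01 and Dlat to -0.02, and without the lowest 10% of sgRNAs Dlat came to -0.04 and Pdhx to -0.03. Leaving out 1 library gave Pdhb from -0.06 to 0.17 and Pdhx from -0.04 to 0.22. None of these was called.

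Counts of called members per group, in either direction, moved by over 1.5 times as follows. Brackets hold the genes called among all 2078 in the same fit. The median of the sgRNAs gave 3 in primary tumour IgG (107) and anti-PD-1 (140), and 2 in spleen IgG (140) and anti-PD-1 (163). It gave 4 in lung anti-PD-1 (279) and 3 in peritoneal metastases anti-PD-1 (176). In liver it gave 3 under IgG (149) and 0 under anti-PD-1 (95). Values as deposited gave 8 in spleen anti-PD-1 (506), 24 in lung IgG (1533) and 16 in lung anti-PD-1 (987). In liver they gave 8 under IgG (476) and 7 under anti-PD-1 (343). Each lymph node group (2015 to 2059) and their mean (2075) had 33, since those libraries hold so many bottom values. The nontargeting median gave 11 in lung IgG (797). One fit of all libraries gave 3 in liver IgG (243), 1 in draining lymph node IgG (74) and 1 in the lymph node mean (66). With the nontargeting median as well, it gave 3 in liver IgG (224) and 1 in liver anti-PD-1 (128). Draining lymph nodes then had 12 under IgG (727) and 12 under anti-PD-1 (585). Non-draining IgG and anti-PD-1 had 2 (140) and 5 (186), and the lymph node mean 14 (914). The median change of all genes in that lymph node mean was 1.84, an upward shift. With only the groups compared, primary tumour anti-PD-1 had 10 (430), liver anti-PD-1 21 (1175) and draining lymph node IgG 3 (122). The 10 included an upward call, Idh3g, with a mean level of 0.16 in T0 and 0.97 in primary tumour anti-PD-1. Leaving out 1 library gave 3 to 5 in liver IgG.

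Members called between organs numbered 1 with the nontargeting median (77 of all genes), 3 as deposited (300) and 1 with the median of the sgRNAs (14). Those called between treatments numbered 3 with log2(value + 10) (42 of all genes) and 0 to 2 when 1 library was left out. They numbered 0 in 6 of the other fixed alternatives (2 to 11 genes) and without lungs (28), where the Mdh2 call was lost.

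The replicate number as a block left the count of depleted members at 6 and that between treatments at 1, and moved no count by over 1.5 times. Same-numbered libraries did not deviate together by the median correlation (-0.048, range -0.356 to 0.269, over 248 pairs), against 0.0216 over 494 pairs of different numbers. Correlations over 0.1 were, however, seen in 39 of the 248 pairs, against 40 of the 494. As 20% of libraries correlated best with their own number, the block was not used. If the batch correction worked on replicate numbers, it would itself remove deviations shared within a number, and the correlation would then not show that libraries are unpaired. Depth is unknown, and lymph node values are limited by the sgRNAs at their bottom value.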
